A study of Mus musculus with 2 samples.

Results

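The transcripts described here are those of 8 CC chemokine genes in mouse soft-tissue sarcoma cells: Ccl2, Ccl3, Ccl4, Ccl5, Ccl7, Ccl8, Ccl9 and Ccl20. They were taken from the table of gene counts by their symbols and are 8 of its 25509 genes. Each symbol matched 1 row. The question was how silencing of circCsnk1g3, a circular RNA made from exons of the Csnk1g3 gene, changed the RNA of these secreted attractants in the sarcoma cells themselves. The table holds 1 library of cells transduced with the hairpin against the circular RNA (shcircCsnk1g3) and 1 library of cells transduced with the control hairpin (shCTR). Both libraries came from C57BL/6 sarcoma cells with the genotype p53-/-Ccne1+, that is, mesenchymal stem cells that had lost p53 and overexpressed cyclin E1. The cells had grown as subcutaneous tumors, had then been seeded in the lungs of other mice, and had been taken back from lung foci before either hairpin was introduced. The p53 loss, the Ccne1 overexpression and the passage through the lung were therefore shared by the silenced and the control cells. The labels give neither the hairpin design nor the number of cultures behind each library.

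CC chemokines are small secreted proteins named for a pair of adjacent cysteines near the start of the mature chain. They bind G protein-coupled receptors on leukocytes and set the direction in which these cells migrate, and many of their genes are switched on by NF-kappaB, AP-1 and interferon regulatory factors. Mesenchymal cells, fibroblasts included, are a known source of the monocyte attractants of the family. Ccl2 and Ccl7 bind Ccr2 and draw monocytes, Ccl8 is related to them in sequence, and in the mouse it acts on Ccr8. Ccl3, Ccl5 and Ccl9 bind Ccr1, and Ccl4 is a close relative of Ccl3. Ccl20 is the ligand of Ccr6, which is found on subsets of T cells, B cells and dendritic cells.

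The adjacent cysteine codons that define the family are given here because they place all 8 genes in it, whatever their level in these cells. Each line is a stretch of 45 bases of coding sequence from the mouse GENCODE M21 transcripts (GRCm38), read 5′ to 3′ on the coding strand, with the pair of cysteine codons in capitals.
Ccl2: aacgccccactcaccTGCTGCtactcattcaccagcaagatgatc
Ccl7: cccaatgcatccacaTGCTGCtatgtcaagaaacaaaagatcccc
Ccl8: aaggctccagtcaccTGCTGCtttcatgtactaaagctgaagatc
Ccl5: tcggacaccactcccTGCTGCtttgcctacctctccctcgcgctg
Ccl3: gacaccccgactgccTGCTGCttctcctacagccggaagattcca
Ccl4: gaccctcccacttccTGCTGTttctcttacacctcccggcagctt
Ccl9: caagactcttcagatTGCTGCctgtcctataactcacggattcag
Ccl20: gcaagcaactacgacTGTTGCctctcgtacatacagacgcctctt

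Outside these codons the sequences diverged. Identity was counted as the share of identical coding bases over the length of the longer sequence. On this measure Ccl3 and Ccl4 had the highest value, 69.9%, followed by Ccl7 and Ccl8 with 65.0% and by Ccl3 and Ccl5 with 62.4%. Ccl2, whose coding sequence of 447 bases was the longest of the 8, shared 48.1% with Ccl7 and 47.9% with Ccl8, which have 294 bases each. A difference in length lowers this measure, so it does not rank how close Ccl2 is to the others. The pair was encoded at codons 34 and 35 in Ccl2, Ccl3 and Ccl4, at codons 33 and 34 in Ccl5 and Ccl7, at codons 32 and 33 in Ccl8 and Ccl20, and at codons 57 and 58 in Ccl9. No stretch of 50 transcript bases from Ccl2, Ccl3, Ccl4, Ccl5, Ccl7, Ccl8 or Ccl20 was found in a transcript of another gene. In Ccl9, 59 of 2957 such stretches (2.0%) also occurred elsewhere, so that its count was the most exposed to reads shared between genes. In each of the other 7 genes the transcript had 3 exons, and in Ccl9 it had 4.

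The libraries held 38792143 counts for shcircCsnk1g3 and 42709996 for shCTR, with 15256 and 15326 genes above 0. Levels are given as TMM-scaled CPM, which are counts per effective library size (the total count times the TMM factor), and differences as the log2 fold change of shcircCsnk1g3 over shCTR with a prior count of 2, which pulls the difference of weakly expressed genes toward 0. The range after each difference comes from the counts of both libraries (95%, Clopper-Pearson) and covers counting error only. With 1 library per condition there was no replicate check and no test between conditions. A difference was counted for the 12941 genes that reached 10 counts in either library. Counts of 3 or fewer were taken as the floor, which corresponds to 0.0765 CPM in shcircCsnk1g3 and 0.0710 CPM in shCTR. The linear Csnk1g3 transcript had 2159 counts in shcircCsnk1g3 and 2411 in shCTR (log2 fold change -0.05, -0.14 to 0.03). Reads were selected by a poly(A) tail, which circular RNA lacks, so this value does not check the silencing.

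Ccl2 and Ccl7 made up nearly all of the CC chemokine RNA of the sarcoma cells, and both were higher in the silenced cells. Ccl5 and Ccl8 were far less abundant and had lower counts in the silenced cells, although for Ccl8 the counting interval included 0. Ccl3 was near 1 CPM in both libraries, and Ccl4, Ccl9 and Ccl20 were at a handful of counts or none. Of the 8 genes, 5 (Ccl2, Ccl3, Ccl5, Ccl7 and Ccl8) passed the minimum of 10 counts.

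Ccl2, the main attractant of monocytes through Ccr2 (ENSMUSG00000035385, chr11:82035571-82037453, plus strand, GRCm38), had 14889 counts in shcircCsnk1g3 and 11454 in shCTR, or 379.7 and 271.1 CPM. The silenced library was the higher of the pair, with a log2 fold change of 0.49 (0.45 to 0.52). Its monocyte-attracting neighbour Ccl7 (chr11:82045712-82047525, plus strand) had 3987 counts in shcircCsnk1g3 and 2587 in shCTR, or 101.7 and 61.2 CPM. The log2 fold change of Ccl7 was 0.73 (0.66 to 0.80), the highest of the 8 genes. In bulk RNA, a larger share of cells expressing a gene and more of its RNA per cell cannot be told apart.

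Ccl8, the third gene of this subfamily that was detected (chr11:82115185-82116799, plus strand), did not follow Ccl2 and Ccl7 upward. It had 145 counts in shcircCsnk1g3 and 186 in shCTR, or 3.70 and 4.40 CPM. The log2 fold change was -0.25 with an interval from -0.58 to 0.07, and a difference was therefore not detectable at this depth.

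Ccl5, an attractant of T cells, monocytes and NK cells (chr11:83525778-83530518, minus strand), had 618 counts in shcircCsnk1g3 and 787 in shCTR, or 15.8 and 18.6 CPM. The silenced library was the lower of the pair, by a log2 fold change of -0.24 (-0.40 to -0.09). For RT-qPCR of Ccl5 the study lists the primers ccctcaccatcatcctcact and ccttcgagtgacaaacacga, printed here because they mark which part of the transcript that assay reads. On the GENCODE transcript the forward primer lay in exon 1 and the reverse primer across the join of exons 2 and 3, with 185 bases from end to end.

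Ccl3 and Ccl4, the macrophage inflammatory proteins, were rare in both libraries. Ccl3 (chr11:83647844-83649355, minus strand) had 36 counts in shcircCsnk1g3 and 35 in shCTR, or 0.918 and 0.828 CPM. The log2 fold change was 0.14 (-0.56 to 0.86), and these counts could not show a difference of that size. Ccl4 (chr11:83662584-83664683, plus strand) had 7 and 9 counts and fell under the minimum of 10, with a value of -0.20 (-1.91 to 1.34).

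Ccl9, a Ccr1 ligand made by myeloid cells (chr11:83572919-83578636, minus strand), had 5 counts in shcircCsnk1g3 and 9 in shCTR, with a log2 value of -0.57 (-2.67 to 0.99). Ccl20, the only member outside chromosome 11 (chr1:83116766-83119167, plus strand), had 0 counts in shcircCsnk1g3 and 2 in shCTR. Both values of Ccl20 lay at or under the floor of 3 counts and no fold change was computed.

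**Figure D1:**
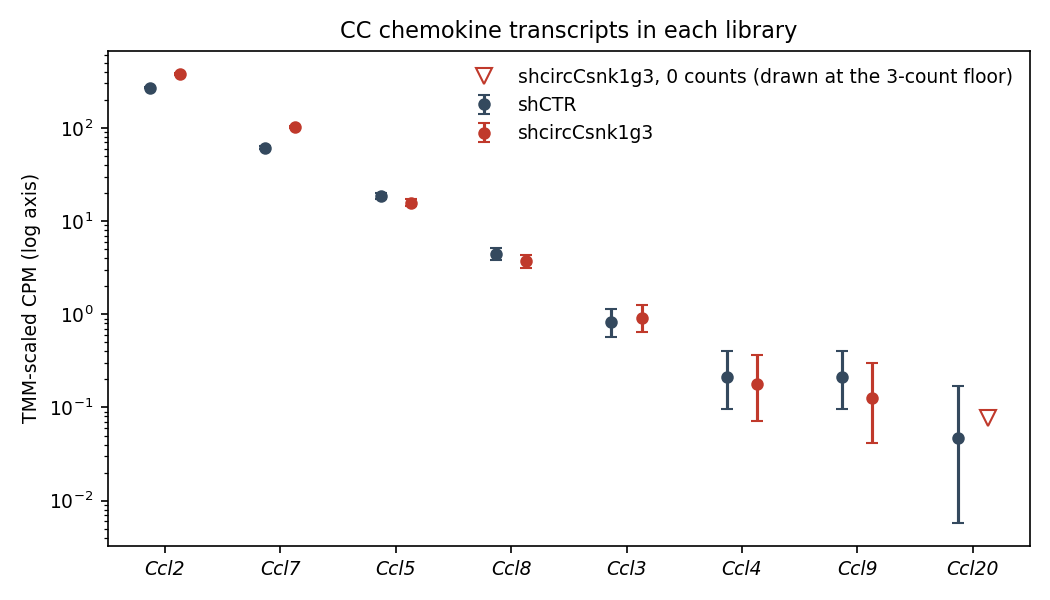
TMM-scaled CPM (log axis) of each CC chemokine in the shCTR library (dark) and the shcircCsnk1g3 library (red), with bars for the 95% exact Poisson interval of the count; an open triangle marks 0 counts, drawn at the floor of 3 counts. Ccl2 and Ccl7 stand at 379.7 and 101.7 CPM in the silenced cells against 271.1 and 61.2 CPM in shCTR, and the intervals of both libraries overlap for Ccl8, Ccl3, Ccl4 and Ccl9.

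None of the 5 genes past the minimum reached a 2-fold difference in either direction, whereas 2.13% of all tested genes were at least 2-fold higher and 2.55% at least 2-fold lower. At 1.5-fold, Ccl7 alone of the 5 was past the threshold, upward, and none was past it downward. The background at that threshold was 5.39% of tested genes higher and 6.31% lower. The counting interval lay above 0 for 2 of the 5 (Ccl2 and Ccl7), against 26.9% of all tested genes, and below 0 for 1 of the 5 (Ccl5), against 28.2%. An interval that leaves 0 was therefore common at this depth. The median over the 5 genes was 0.14, beside 0.00 over all 12941 tested genes. It was -0.20 over the 7 genes that enter with no count filter, and -0.20 in the deposited TMM-scaled table.

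**Figure D2:**
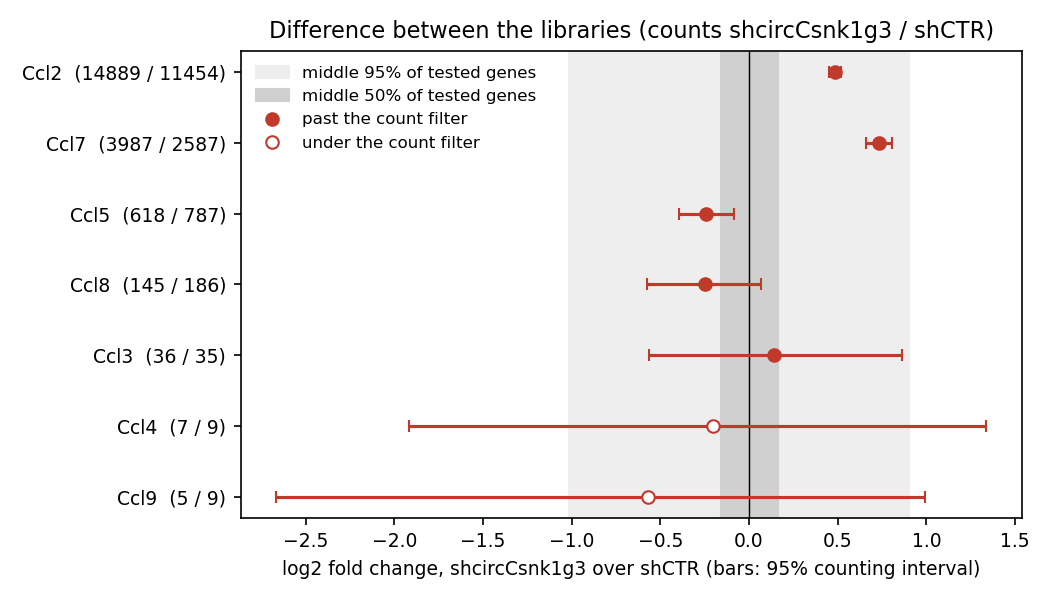
Log2 fold change (shcircCsnk1g3 over shCTR) of the 7 CC chemokines with more than 3 counts in 1 library or both, with the 95% exact counting interval as a bar and the counts of both libraries beside each name; light and dark bands hold the middle 95% (-1.02 to 0.90) and the middle 50% (-0.16 to 0.16) of tested genes. Ccl7 and Ccl2 lie to the right of the dark band with short bars, while the bars of Ccl3, Ccl4 and Ccl9 span 0.

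The Ccl2 and Ccl7 differences were placed among those of other genes, with and without the genes of few counts. Most genes in either set have fewer counts than Ccl2 and Ccl7 and wider intervals. Among 10662 genes whose counts summed to 200 or more, 125 (1.17%) had a log2 fold change as high as that of Ccl7 or higher, and 338 (3.17%) as high as that of Ccl2 or higher. Over all tested genes, which include many with few counts, these shares were 3.74% and 7.19%. Values as low as that of Ccl5 or lower were found in 14.0% of the genes with 200 or more summed counts and in 17.8% of all tested genes, and for Ccl8 these shares were 13.4% and 17.3%. Ccl7 and Ccl2 thus stood nearer to the edge of the distribution than Ccl5 and Ccl8 did.

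**Figure D3:**
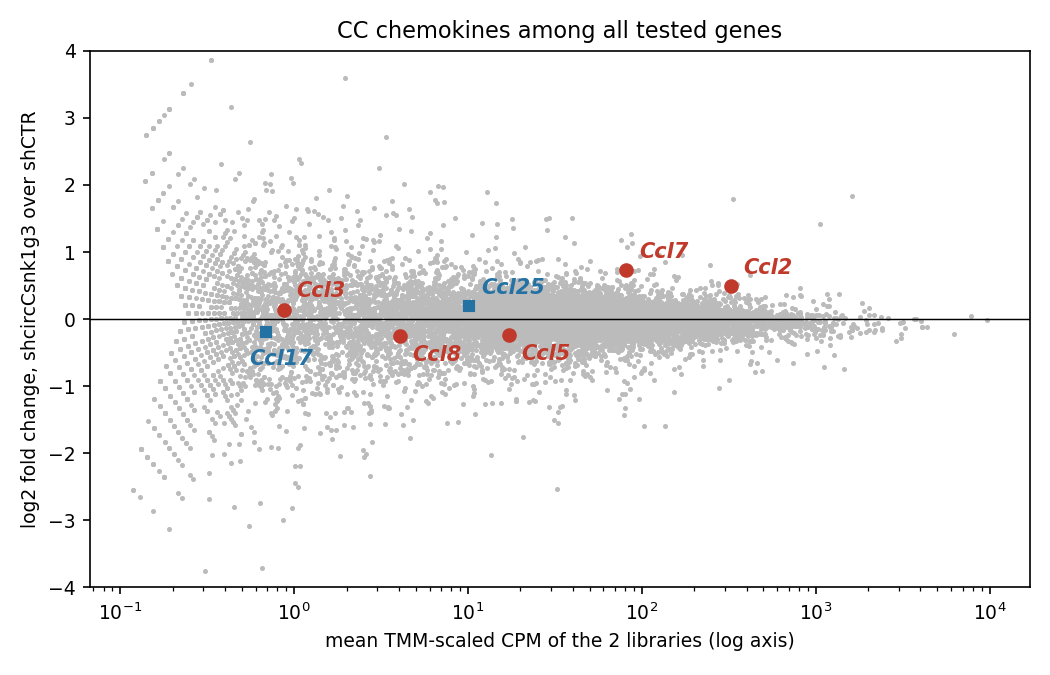
Log2 fold change of each tested gene (grey) against its mean TMM-scaled CPM over both libraries (log axis), with the 5 CC chemokines past the count minimum in red and Ccl25 and Ccl17, the other CC ligands past it, in blue; 9 tested genes lie outside the vertical range. Ccl2 and Ccl7 sit above most genes of their level, and Ccl3, Ccl5, Ccl8, Ccl17 and Ccl25 lie within the cloud.

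Levels of different genes were compared per kb of annotated exon. On this scale the order was Ccl2, Ccl7, Ccl5, Ccl8, Ccl3, Ccl4, Ccl9 and Ccl20 in the control library, and the same in the silenced library. In the silenced library Ccl9 had 5 counts and Ccl20 had 0, and the floor of 3 counts does not settle their order. In shcircCsnk1g3 the levels of the first 5 were 333.6, 126.9, 16.4, 7.24 and 1.2 CPM per kb, and in shCTR they were 238.2, 76.4, 19.4, 8.62 and 1.08 CPM per kb. The median tested gene was at 6.07 CPM per kb in either library. Ccl2 was therefore above 99.1% of tested genes in shcircCsnk1g3 and 98.6% in shCTR, and Ccl7 above 97.6% and 95.4%. Ccl5 was above 75.6% and 78.8%, Ccl8 close to the middle with 54.4% and 59.1%, and Ccl3 above 21.8% and 21.03%.

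The composition of the chemokine RNA differed between the libraries. Together the 8 genes had 19687 counts in shcircCsnk1g3 and 15069 in shCTR, which is 0.0508% and 0.0353% of all counts. Of these, Ccl2 held 75.6% in shcircCsnk1g3 (75.02 to 76.2, exact 95% interval) and 76.0% in shCTR (75.3 to 76.7). Its share was thus alike within counting error, while that of Ccl7 was larger in the silenced cells, at 20.3% (19.7 to 20.8) against 17.2% (16.6 to 17.8). The share of Ccl5 was 3.14% (2.90 to 3.39) against 5.22% (4.87 to 5.59), and that of Ccl8 was 0.737% (0.622 to 0.866) against 1.23% (1.06 to 1.42).

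Ratios between genes of the same library do not depend on how the libraries were scaled. For every 100 counts of Ccl2 there were 26.8 counts of Ccl7 in shcircCsnk1g3 and 22.6 in shCTR, so that this ratio was 1.19 times as large in the silenced cells (1.12 to 1.25, a normal-approximation interval on the log scale that covers counting error only). For every 100 counts of Ccl2 there were 4.15 counts of Ccl5 in shcircCsnk1g3 and 6.87 in shCTR, a ratio of 0.604 between the libraries (0.542 to 0.673). Ccl8 stood at 0.974 and 1.62 per 100 counts of Ccl2, a ratio of 0.600 (0.482 to 0.746). Against Ccl5, Ccl8 kept nearly the same proportion, with 23.5 and 23.6 counts per 100 of Ccl5 and a ratio of 0.993 (0.780 to 1.26). The proportion of Ccl3 to Ccl2, with a ratio of 0.791 (0.497 to 1.26), could not be told from equal. The ratios to Ccl2 were thus larger for Ccl7 and smaller for Ccl5 and Ccl8 in the silenced library by margins beyond counting error. No replicate sets the spread between cultures. The higher count of Ccl2 enters these ratios, and they do not show that Ccl8 itself was lower.

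The genes of the family on chromosome 11 lie in 2 groups, and the levels differed along each. The first group runs from Ccl2 to Ccl1 over 270 kb, in the order Ccl2, Ccl7, Ccl11, Ccl12, Ccl8 and Ccl1, with the annotated body of Ccl1 (chr11:82176657-82305690, minus strand) as its far end. Ccl2 and Ccl7, whose starts are 10.1 kb apart, were the abundant pair, while Ccl11, an eosinophil attractant, and Ccl12, a further Ccr2 ligand, had 0 counts in both libraries. Ccl8, which lies beyond them, was detected, and Ccl1 had 0 counts in both. A count of 0 was read against the floor of 3 counts, that is 0.0765 CPM in shcircCsnk1g3 and 0.0710 CPM in shCTR. This floor is a chosen limit and not an interval.

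The second group begins 1220 kb further on and runs from Ccl5 to Ccl4 over 139 kb, in the order Ccl5, Ccl9, Ccl6, Ccl3 and Ccl4. Ccl5 was the only one of its genes with a level above that of the median tested gene, and Ccl6 had 0 counts in both. The flanking genes outside the family were silent or nearly so, in a table where 9408 of 25509 genes had 0 counts in both libraries. Asic2 before Ccl2, Rpl9-ps1 before Ccl3 and Wfdc17 after Ccl4 had 0 counts in both libraries, and Heatr9 beside Ccl5 had 6 counts in shcircCsnk1g3 and 5 in shCTR. On chromosome 1, Krtap28-13 and Daw1, the genes on either side of Ccl20, had 0 counts in both. Gm17268, which overlaps Ccl2 on the opposite strand, also had 0 counts in both, and the kit kept strand while its use in counting was not given in the sources used here.

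**Figure D4:**
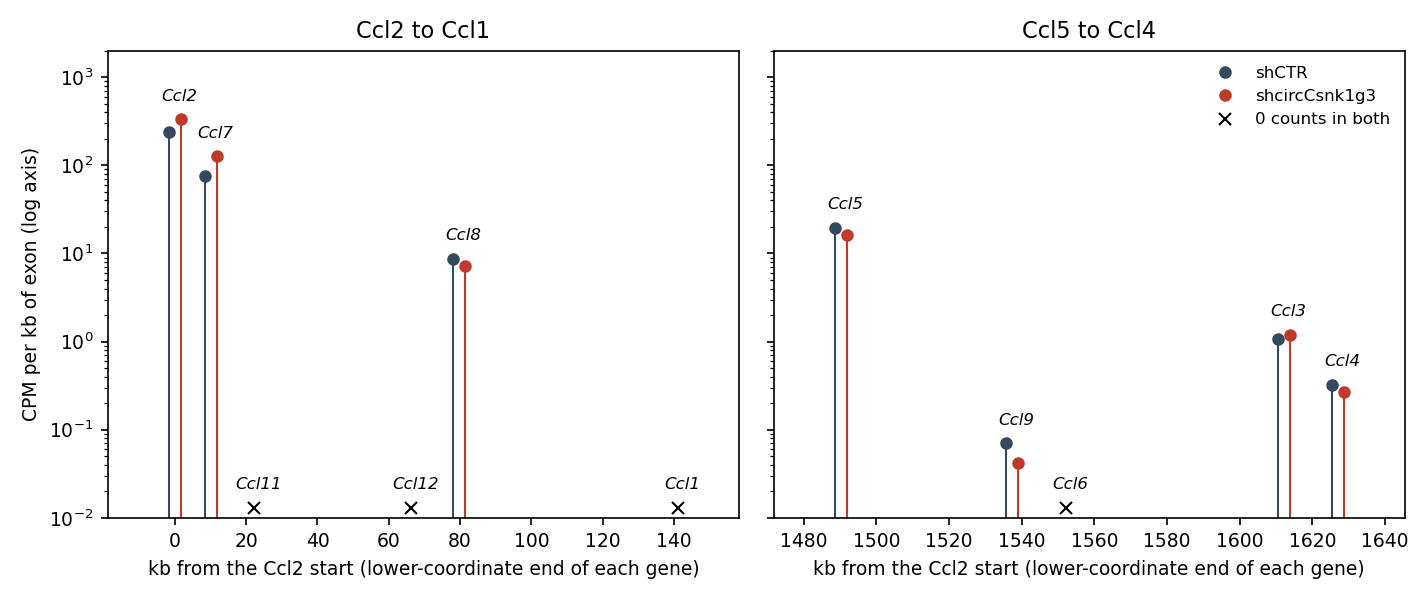
CPM per kb of exon (log axis) of the CC chemokine genes of chromosome 11 against their distance from the Ccl2 start in kb, in shCTR (dark) and shcircCsnk1g3 (red); crosses mark genes with 0 counts in both libraries, each gene stands at its lower-coordinate end, and the libraries are drawn slightly apart for legibility. In the first group Ccl2 and Ccl7 were higher in red and Ccl8 in dark, and 4 genes of the 2 groups were not detected.

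Parts of the genes outside the coding sequence were examined for features that the members might share. The nonamer TTATTTATT is a core of the AU-rich elements through which many cytokine mRNAs are broken down. It was not found in the 3′ UTR of the 1 transcript searched for each of the 8 genes. Over 21011 genes with an annotated 3′ UTR it occurred in 7.66%, where the longest 3′ UTR of each gene was searched. It occurred in 2.46% of the 10780 genes whose longest 3′ UTR has at most 1000 bases. The transcripts searched are as short for all members but Ccl9 and Ccl20. The shorter pentamer ATTTA occurred 9 times in Ccl20, 5 times in Ccl3 and in Ccl9, 2 times in Ccl4 and in Ccl7, 1 time in Ccl2, and was not found in Ccl5 or Ccl8. The pair that was higher in the silenced cells and the pair with lower counts were thus both among the genes with few of these pentamers or none.

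Sequence upstream of the start site was held for 4 of the 8 genes, Ccl3, Ccl8, Ccl9 and Ccl20 (RefSeq, GRCm38.p6). Searched on both strands over 250 bases were the letters GGGANNNNCC (a loose form of the NF-kappaB site, in 17.6% of 32851 promoters), GAAANNGAAA (an interferon response element, 2.98%), TGANTCA (the AP-1 site, 6.75%) and TATAAA (the TATA box, 12.4%). The Ccl8 sequence is shown because it belongs to the only 1 of these 4 genes with more than 100 counts in each library. It covers chr11:82114935-82115184 on the plus strand, with the TATAAA at bases -32 to -27 before the start site in capitals.
Ccl8: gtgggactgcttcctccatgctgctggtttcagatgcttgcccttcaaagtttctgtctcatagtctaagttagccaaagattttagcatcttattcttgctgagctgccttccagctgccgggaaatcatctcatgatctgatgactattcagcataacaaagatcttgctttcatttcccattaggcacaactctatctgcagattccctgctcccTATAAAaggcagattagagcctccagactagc

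No other of the searched motifs was present in these bases of Ccl8. Ccl20 held GGGANNNNCC at -81 to -72, Ccl9 held TGANTCA at -53 to -47 and TATAAA at 3 positions, of which 2 overlap, and Ccl3 held none of the searched motifs in its 250 bases. A match is a description of the letters and not of a bound site.

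The 8 genes held 97.8% of all CC ligand counts in shcircCsnk1g3 and 97.2% in shCTR. Of the 15 other CC ligand genes in the table, 11 had 0 counts in both libraries, beside 9408 of all 25509 genes. Among the 11 were Ccl19, Ccl21a, Ccl21b and Ccl22, the attractants of lymphoid tissue and regulatory T cells. Ccl25, known as a thymic and intestinal attractant, had 421 counts in shcircCsnk1g3 and 397 in shCTR, with a log2 fold change of 0.19 (-0.01 to 0.39). Ccl17, a Ccr4 ligand, had 25 and 31 counts, with a value of -0.19 (-1.02 to 0.60). For both genes the interval included 0. Ccl27a and Ccl28 stayed at or under 3 counts in each library.

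The receptors for these ligands were largely undetected in the sarcoma cells. Of 15 CC chemokine receptor genes, atypical receptors included, 11 were at or under 3 counts in both libraries, beside 11432 of all 25509 genes. Ccr2, the receptor of Ccl2 and Ccl7, had 0 counts in both, as did Ccr3, Ccr6 and Ccr8. Ccr10, a receptor of Ccl27a and Ccl28, had 65 counts in shcircCsnk1g3 and 44 in shCTR, and its log2 fold change was 0.65 (0.10 to 1.26). Ackr2, a scavenger that removes inflammatory CC chemokines, had 10 and 3 counts, for which the interval of the log2 ratio ran from -0.11 to 4.34. Ackr4 had 5 and 3 counts and Ccrl2 had 4 and 3.

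The chemokines of the other families did not move as 1 group either. Of 16 genes of the CXC, CX3C and XC families in the table, 7 passed the minimum, with a median log2 fold change of 0.23 beside 0.00 over all tested genes. This median was 0.10 with no count filter or with a minimum of 200 summed counts. The counting interval lay above 0 for 2 and below 0 for 2, near the shares of 26.9% and 28.2% over all tested genes. Cxcl10, an attractant of T cells through Cxcr3, had 1226 counts in shcircCsnk1g3 and 804 in shCTR (0.71, 0.59 to 0.85), and Cxcl1, a neutrophil attractant, had 2694 and 2282 (0.35, 0.27 to 0.43). Cxcl12, which is made by mesenchymal cells and binds Cxcr4, had 632 and 1939 counts (-1.51, -1.64 to -1.38) and was the only gene of these families past 2-fold among the 7 over the minimum, beside 2.55% of all tested genes at least 2-fold lower. Cxcl5 had 85 and 133 counts (-0.53, -0.95 to -0.13). Cxcl10, Cxcl1, Cxcl12 and Cxcl5 are the 2 highest and the 2 lowest of these genes with at least 200 summed counts. Both directions were therefore named by choice.

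The genes that act on CC chemokine transcription were all expressed. Of 29 such genes in the NF-kappaB, interferon regulatory factor, AP-1, C/EBP and STAT pathways, 15 had an interval above 0 and 4 below 0, beside 26.9% and 28.2% of all tested genes. Their median log2 fold change was 0.10, within the middle 50% of tested genes (-0.16 to 0.16). The list holds activators and inhibitors of NF-kappaB alike, so these counts give no direction of chemokine transcription. Genes with few counts, which have wider intervals, are part of the background. Irf7, a factor of the interferon response, had the highest value, with 336 counts in shcircCsnk1g3 and 147 in shCTR (1.29, 1.02 to 1.59), followed by Fos with 319 and 211 counts (0.70, 0.45 to 0.96). The lowest were Jun, with 12436 and 16417 counts (-0.29, -0.33 to -0.26), and Irak1, a kinase of the Toll-like and interleukin 1 receptors, with 4374 and 5523 counts (-0.23, -0.29 to -0.17).

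Of 22 receptors through which inflammatory signals induce CC chemokines, 20 passed the minimum, 7 with an interval above 0 and 4 below 0, and their median was 0.06. These counts were near the shares of all tested genes, 26.9% and 28.2%. Tlr2, a receptor for bacterial lipoproteins, had 1673 counts in shcircCsnk1g3 and 972 in shCTR (0.89, 0.78 to 1.01), and Lifr had 3459 and 3090 (0.27, 0.20 to 0.34). Osmr, the oncostatin M receptor, had 226 and 479 counts (-0.97, -1.21 to -0.74), and Pdgfra, the PDGF receptor alpha, had 10344 and 13824 (-0.31, -0.35 to -0.27).

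Among 12 regulators of chemokine mRNA decay, all past the minimum, 3 had an interval above 0 and 3 below 0, near the shares of 26.9% and 28.2% over all tested genes. Their median was -0.02, and 0.01 under scaling by total counts. The highest were Mapk14 (3819 and 3601 counts in shcircCsnk1g3 and shCTR, 0.19, 0.13 to 0.26) and Zfp36, which binds AU-rich elements (1145 and 1109 counts, 0.15, 0.03 to 0.27). The lowest were Rc3h2 (1354 and 1900 counts, -0.38, -0.48 to -0.28) and the phosphatase Dusp1 (1445 and 1973 counts, -0.34, -0.44 to -0.24).

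Secreted CC chemokines are held at the cell surface by heparan sulfate and are trimmed by proteases. Of 29 genes of heparan sulfate assembly and chemokine cleavage, 25 passed the minimum, 4 with an interval above 0 and 15 below 0, beside 26.9% and 28.2% of all tested genes, and the median was -0.13. The pair of extracellular heparan sulfate sulfatases differed in direction. Sulf2 had 1019 counts in shcircCsnk1g3 and 426 in shCTR (1.36, 1.2 to 1.53), while Sulf1 had 146 and 282 (-0.83, -1.14 to -0.55). Hs6st1, a heparan sulfate sulfotransferase, had 5762 and 4725 counts (0.39, 0.34 to 0.45), and the protease Mmp3 had 61 and 159 (-1.25, -1.73 to -0.84).

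**Figure D5:**
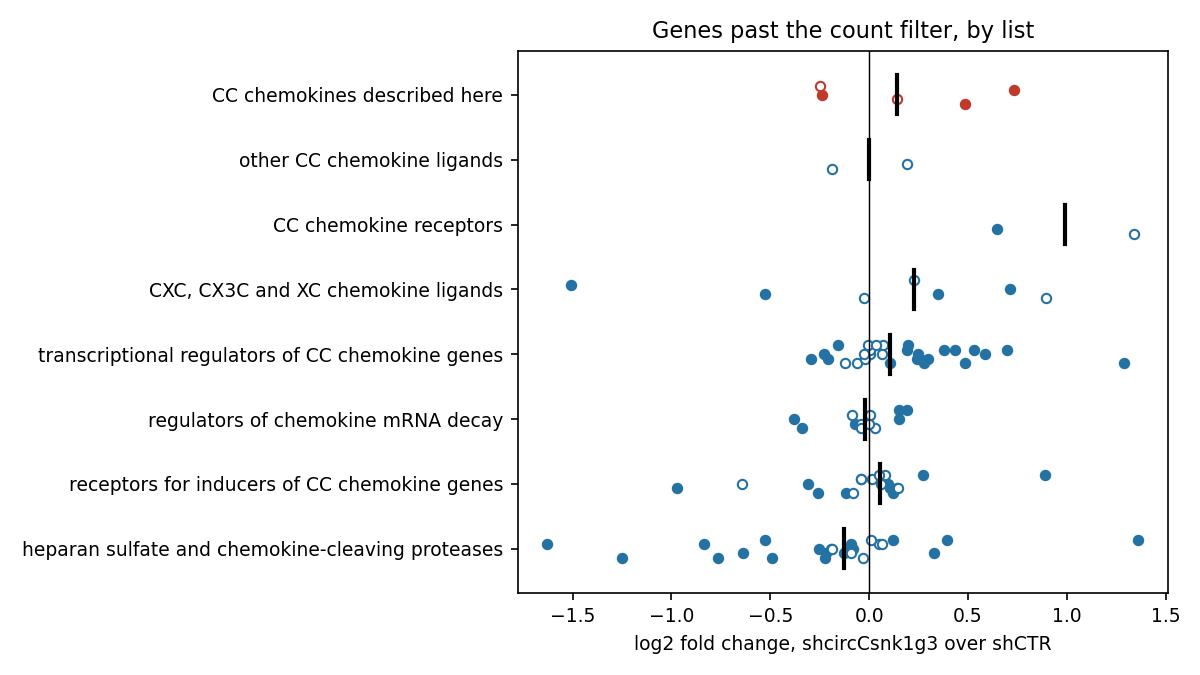
Log2 fold change (shcircCsnk1g3 over shCTR) of each gene past the count minimum, by list, with the CC chemokines described here in red; filled points have a counting interval that leaves 0, open points one that includes it, and vertical bars mark the median of each list. The 5 red points lie on both sides of 0, and the transcriptional regulators lie mostly to the right of it, with 15 above 0 and 4 below 0 by their intervals. That list holds activators and inhibitors alike.

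Markers of other cells that make CC chemokines were low. Of 18 leukocyte and myeloid marker genes, 13 had 0 counts in both libraries, among them the defining genes Adgre1, Itgam, Lyz2, C1qa and Tyrobp, and Ptprc had 1 count in shcircCsnk1g3 and 0 in shCTR. Only 3 passed the minimum, with a median of -0.71. Of the 3, 2 had an interval below 0 and 1 was at least 2-fold lower, beside 28.2% and 2.55% of all tested genes. Summed, the 18 markers had 163 counts (4.16 CPM) in shcircCsnk1g3 and 290 (6.86 CPM) in shCTR. Most of them came from Cd68 (87 and 155 counts, -0.71, -1.12 to -0.34) and Laptm5 (45 and 102 counts, -1.04, -1.61 to -0.55). The third, Coro1a, had 28 and 27 counts (0.15, -0.66 to 0.98). Of 11 T, B and NK cell markers, 7 were at 0 in both libraries and the sums were 11 and 8 counts. Endothelial markers summed to 104 and 97 counts and lung epithelial markers to 28 and 29, with 3 of 8 and 7 of 10 at 0 in both. Over the whole table, 9408 of 25509 genes were at 0 in both, so a count of 0 was common.

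The mesenchymal markers, in turn, summed to 407982 counts in shcircCsnk1g3 and 458686 in shCTR, or 10404 and 10857 CPM, and 11 of 12 passed the minimum. Thy1, the remaining 1, had 0 counts in shcircCsnk1g3 and 1 in shCTR. Of the 11 that passed, 2 had an interval above 0 and 7 below 0, beside 26.9% and 28.2% of all tested genes. Their median was -0.10, with Col3a1 (59725 and 49831 counts, 0.37, 0.35 to 0.39) and Ly6a (1854 and 3223 counts, -0.69, -0.77 to -0.61) at the ends. The part of the differences in mesenchymal and myeloid markers in those of the chemokines was not tested. The engineered Ccne1 had 893 and 963 counts (-0.00, -0.13 to 0.13), and Trp53 still had 3841 and 4334 counts (-0.07, -0.13 to -0.00), a count that does not show which part of the gene the reads came from.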

How the data were processed

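Poly(A) RNA of 1 shcircCsnk1g3 and 1 shCTR library was sequenced with a stranded kit. Alignment by the authors used STAR and GRCm38, and RSEM then gave estimated counts per gene, a step that divides reads that match several genes. The GENCODE release and the use of strand in counting were not given in the sources used here. The deposited expected counts per gene are whole numbers without normalization, and 92 spike-in rows, at 0 in both libraries, were left out. A second deposited table holds TMM-scaled CPM for 11624 genes, made by the authors with edgeR, and served as an alternative.

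TMM factors (1.01 and 0.989) came from edgeR 4.0.16 under R 4.3.3 and used the genes that reached 10 counts in either library. Intervals were computed with scipy 1.17.1, tables with pandas 2.3.3 and plots with matplotlib 3.10.9 (python 3.11.15). With 1 library per condition no test was made. Intervals are 95% exact (Clopper-Pearson for ratios between the libraries and for shares, Poisson for counts) except those of ratios between genes compared across the libraries, which use a normal approximation on the log scale. They cover counting error only and treat reads as independent molecules. A gene with 100 counts in each library had an interval of 0.41 to either side on the log2 scale, and 1 with 10000 counts an interval of 0.04. The steps were checked on simulated counts with Poisson error only, a check that does not cover the spread between cultures.

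The 8 genes and the other lists were chosen with earlier results of these data known. All 8 are described, with the CC ligands and receptors above 3 counts and the genes next to them on the chromosome. From each further list at most the 2 highest and 2 lowest genes with at least 200 summed counts are named, and genes named as at 0 or as marker sources (Laptm5, Coro1a, Ptprc and Thy1 among them) were chosen after their values were seen. No gene was named for a like pattern, since 2 libraries give a single ratio. Coordinates and transcripts are from GENCODE M21 on GRCm38, in which 25251 of 25509 gene identifiers were found, and promoters from RefSeq. The symbols Cxcl11, Trac and Ccl21c were looked for and are not analysed here.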

Additional observations from a re-analysis of the deposited data

How the results depend on the processing

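Of 115 values recomputed under the alternatives, 112 were counted as unchanged. They differed from the reported value by less than its counting interval, the spread within the list, or 1.5 times for a count. The median over the CC chemokines also had to keep its sign. Among the 112 values, the median of the mRNA decay regulators changed sign, to 0.01 from -0.02 with total counts. The fold changes of Ccl2, Ccl3, Ccl4, Ccl5, Ccl7, Ccl8 and Ccl9 stayed inside their counting interval under DESeq2 1.42.0 size factors, total counts, upper-quartile factors, the deposited TMM-scaled table and prior counts of 0.5 and 10, in 42 of 42 cases. The median over the CC chemokines depended on which were included: it was 0.14 over 5 genes, but -0.20 over 7 genes with no count filter and -0.20 over the 7 genes in the deposited TMM-scaled table, since Ccl4 and Ccl9, at 9 counts or fewer, then enter. A threshold of 1.5-fold in place of 2-fold counted 1 gene as higher (Ccl7) in place of 0. Scaling by total counts moved the median of all tested genes to 0.03, from 0.00. No paired analysis was possible because each condition had 1 library, and for the same reason no library could be left out. Ccl3, Ccl4, Ccl9 and Ccl20 are limited by depth.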
